A study of Homo sapiens with 9 samples.

Results

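The ARF family of small GTPases was examined in ribosome profiling of the human liver cancer line Huh-7 through 10 genes chosen by name: ARF1, ARF3, ARF4, ARF5, ARF6, ARL1, ARL2, ARL3, SAR1A and SAR1B. Of these, 9 had a value, and all 9 were in both deposited tables, out of 9221 genes in either table and 8775 in both. ARF3 was not analysed here. The list was drawn up with the ratios in these tables already known, so that the values of the members are given as a description. Cells were grown overnight and then treated for 1 hr with 1.5 μM PF-06378503 (PF8503), with 1.5 μM of a second compound (PF846) or with 0.5% DMSO as vehicle. Each condition had 3 replicates, which the labels call biological, for 9 libraries in total. The labels spell the number of the second compound in more than one way, and the study's short name is used here. Both compounds were given to the same cell line at the same dose and time, and they belong to a class that slows the ribosome on selected nascent chains.

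GTPases of this family switch between a GDP-bound form and a GTP-bound form that holds on to membranes. Exchange factors load them with GTP, GTPase-activating proteins return them to the GDP form, and the active form recruits coats, adaptors and tethers. ARF1, ARF3, ARF4 and ARF5 work mainly at the Golgi and the ER-Golgi intermediate compartment, where they recruit the COPI coat and clathrin adaptors. ARF6 works at the plasma membrane and endosomes. ARL1 recruits golgin tethers to the trans-Golgi, ARL2 binds tubulin-folding cofactors, and ARL3 releases lipidated cargo into cilia. SAR1A and SAR1B start the COPII coat that buds vesicles from the ER, a step on which hepatocytes depend for the secretion of lipoproteins.

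The first 60 coding bases of 4 ARFs are shown because the methods counted footprints from 10 codons after the start unless a stall was called. That point was read here as codon 10, which the wording does not settle. Reads were also kept only where they matched a single transcript, so differences between transcripts, paralogs among them, decide what can be told apart. The bases in capitals run from codon 10 onward. They come from GENCODE version 44 on GRCh38, and each lies in a single exon. ARF1 (ENSG00000143761) lies on the forward strand at chr1:228082708-228099212, and the bases shown are in exon 2 at chr1:228097115-228097174. Those of ARF4 (ENSG00000168374) are in exon 1 at chr3:57597081-57597140 on the reverse strand. Those of ARF5 (ENSG00000004059) are in exon 1 at chr7:127588499-127588558 on the forward strand. Those of ARF6 (ENSG00000165527), whose coding sequence is in 1 exon, are in exon 2 at chr14:49893737-49893796 on the forward strand.
ARF1: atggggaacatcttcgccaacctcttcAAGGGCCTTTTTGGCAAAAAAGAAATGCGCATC
ARF4: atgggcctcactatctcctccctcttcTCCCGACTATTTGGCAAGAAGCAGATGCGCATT
ARF5: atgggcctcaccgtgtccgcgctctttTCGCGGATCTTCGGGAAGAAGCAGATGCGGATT
ARF6: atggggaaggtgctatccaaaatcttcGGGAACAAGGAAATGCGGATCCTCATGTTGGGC

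Over the whole coding sequence, ARF1 shared 76.4% of aligned bases with ARF5, 70.6% with ARF6 and 67.4% with ARF4. Its closest relative in the list was ARF3, at 83.9%. The longest run of bases that ARF1 and ARF3 have in common was 23, in exon 4 of ARF1 at chr1:228097668-228097690 on the forward strand.
Longest run in common of ARF1 and ARF3: GAGGACGAGCTCCGGGATGCTGT
None of the 519 windows of 28 bases in the coding sequence of ARF1, about the length of a footprint, occurred in the same orientation in any of the other canonical coding transcripts among the 19701 of GENCODE version 44. The same was true of ARF4, ARF5, ARF6, ARL1, ARL2, ARL3, SAR1A and SAR1B. Within that set, coding footprints of at least 28 bases without a mismatch could therefore be assigned to each of these 9 transcripts. Shorter footprints, and the transcript set of the authors (GENCODE version 24), were not searched. SAR1A and SAR1B had 78.4% of aligned bases in common and a longest common run of 17 bases.

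The deposited tables hold, for each transcript, the authors' means of size-factor normalized counts for vehicle and for the compound. Without per-library values there is no replicate error, no test across libraries was made, and the depth of a library is unknown. In place of replicate error, each member's log2 ratio of compound over vehicle was set against the central 95% of the log2 ratios of the 500 transcripts nearest to it in mean level. The PF8503 table lists 9157 transcripts and that of PF846 lists 8839, with median vehicle means of 397 and 382 normalized counts. All 10 hepatocyte markers had values, from 1296 normalized counts to 212970 for AFP with vehicle, whereas 2 of the 9 endothelial, leukocyte and fibroblast markers did, namely CD68 at 889 and PECAM1 at 170.0. The sequencing lanes in the library names each held a single condition, and effects of lane and treatment cannot be told apart. No matched RNA libraries were used here. Fewer ribosomes per mRNA, less mRNA per cell and fewer cells with the mRNA cannot be told apart.

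The same vehicle libraries enter both tables, and the ratio of the vehicle means was 1.09 for 98.5% of the transcripts in both, within 0.002 on the log2 scale. The 9 members departed from this ratio by at most 5.1e-05, which was read as the same codons having been counted for both compounds in each of them. The PF8503 and PF846 values of a member can thus be set side by side, although they share the vehicle.

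ARF1 had the highest ribosome occupancy of the family. In the PF8503 table its vehicle mean was 5480 normalized counts, number 303 from the top of that table. Per counted codon, that is after leaving out the first 9 and last 10 codons of the GENCODE coding sequence, its level with vehicle was 33.8 normalized counts. Counting from codon 10 was assumed for every member, and the deposited means do not show where it began. ARF4 followed at 10.8 per codon, then SAR1A at 9.79, ARF5 at 7.29, ARL1 at 6.11 and ARF6 at 6.10. SAR1B had 3.86 normalized counts per codon, ARL3 had 1.50 and ARL2 had 0.918. ARF1 was thus 3.13-fold above ARF4 and 36.8-fold above ARL2 per codon. Within pairs of paralogs, SAR1A was 2.54-fold above SAR1B, ARL3 1.63-fold above ARL2 and ARF4 1.48-fold above ARF5. ARL1 and ARF6 lay close together, and without a spread over libraries none of the steps in this order can be tested.

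**Figure D1:**
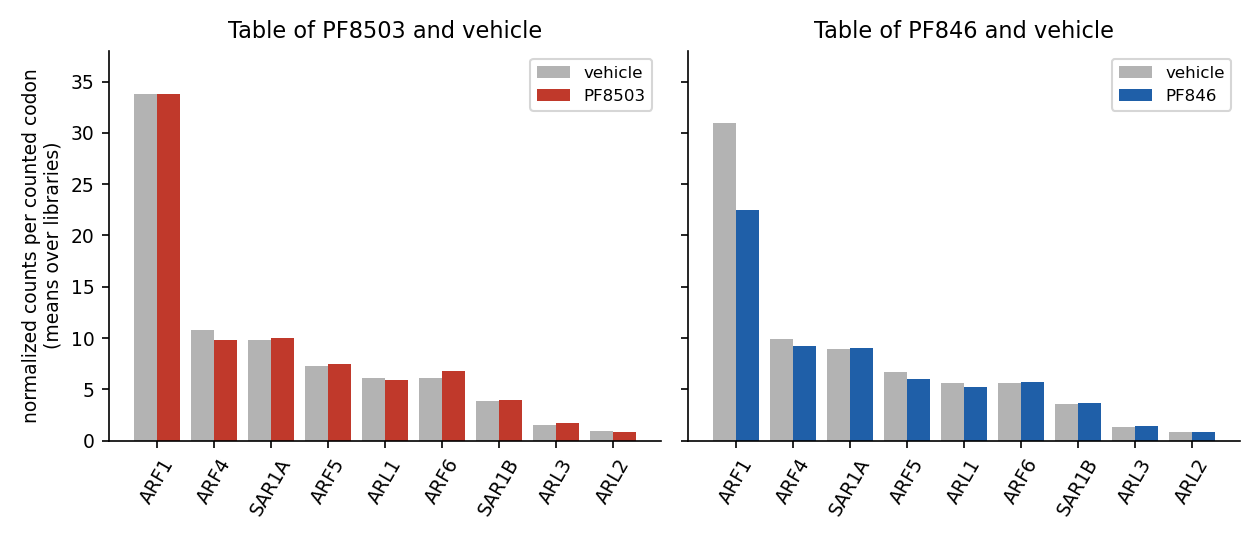
Authors' means divided by the counted codons of each coding sequence, in normalized counts per codon, for vehicle (grey) and the compound (colour) in each table, with members ordered by their vehicle level. ARF1 stands at 33.8 with vehicle and 33.8 with PF8503, and at 31.0 with vehicle and 22.5 with PF846. The tables were normalized separately, so bars are compared within a panel.

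With PF846, ARF1 was lower than with vehicle, and 7 of the other 8 members stayed inside the range of their neighbours in level. The remaining member, ARF5, lay just below its range. The authors' mean of ARF1 was 5016 normalized counts with vehicle and 3638 with PF846, a log2 ratio of -0.46 (a change of -27.5%). The gap of -1378 normalized counts is greater in size than the whole vehicle mean of ARF5, ARF6 or ARL1 in that table. The 500 transcripts nearest to ARF1 in level had log2 ratios between -0.13 and 0.12 in their central 95%, and 0.6% of them were as low as ARF1. ARF1 was number 41 from the lowest of all 8839 transcripts. Of the 40 transcripts below it, 12 were counted over the same codons in both tables. The rest were counted over different codons for the compounds or were in a single table. Among the 8641 transcripts counted over the same codons in both tables, ARF1 was number 13 from the lowest with PF846.

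With PF8503, ARF1 had the level it had with vehicle. Its authors' mean was 5480 normalized counts with vehicle and 5480 with PF8503, which is a log2 ratio of -0.00014 and a difference of -0.534 normalized counts. It was number 4144 from the lowest in the PF8503 table. At this level the central 95% of neighbours ran from -0.32 to 0.18, a range wider than the one with PF846, so that a small effect of PF8503 on ARF1 could not be told from the spread of transcripts.

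The compounds therefore differed for ARF1 by 0.46 on the log2 scale, PF8503 minus PF846, or 1.38-fold. The central 95% of the differences among neighbours in level was -0.24 to 0.17, and 99.8% of neighbours had a difference as low as or lower than that of ARF1. It was number 14 from the highest of the 8641 transcripts counted over the same codons. The difference was not tested over libraries, and ARF1 was listed with the PF846 value known.

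**Figure D2:**
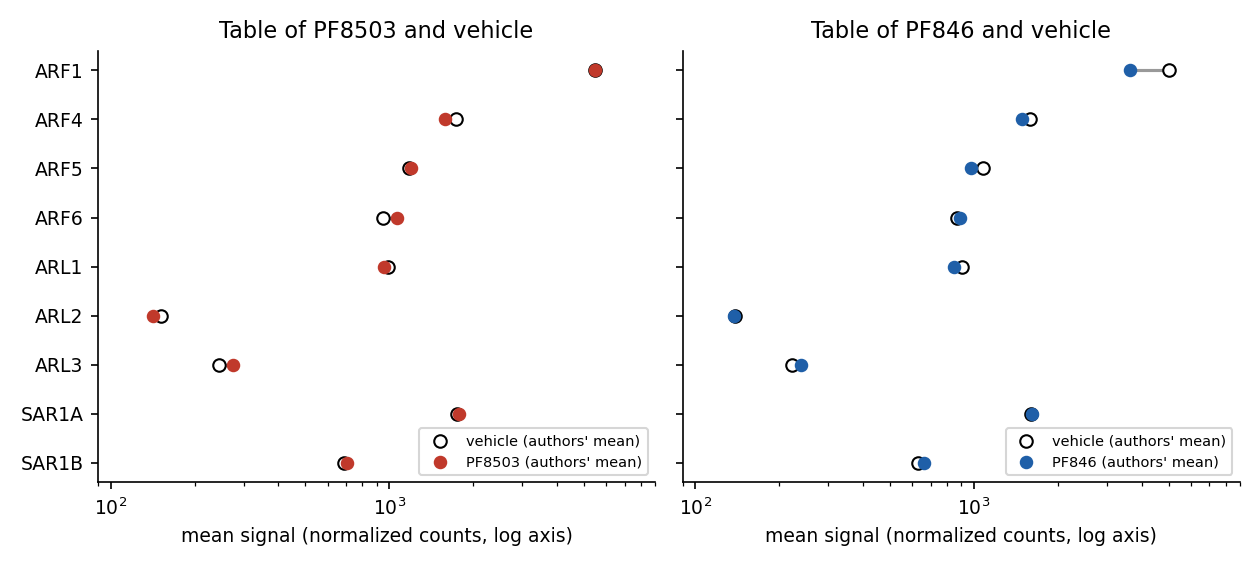
Authors' means of the 9 members in normalized counts (log axis), with vehicle as open circles and the compound as filled circles, in the PF8503 table (left) and the PF846 table (right). The circles of ARF1 coincide with PF8503, and lie at 5016 and 3638 with PF846.

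The other ARFs recruit overlapping sets of coats and adaptors, and none of them had a log2 ratio near that of ARF1 with PF846. ARF5, a Golgi ARF, had authors' means of 1074 normalized counts with vehicle and 975 with PF846, a log2 ratio of -0.14. This lay just below the central 95% of its neighbours, which ran from -0.13 to 0.12, and 2.4% of neighbours were as low. With PF8503 the means of ARF5 were 1173 with vehicle and 1198 with the compound, a log2 ratio of 0.031. The difference between compounds for ARF5 was 0.17, inside the range of its neighbours (-0.23 to 0.17) but near its upper end.

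ARF4, which is grouped with ARF5 within the family, was somewhat low with both compounds. Its authors' means were 1741 normalized counts with vehicle and 1578 with PF8503, a log2 ratio of -0.14. In the PF846 table they were 1594 and 1489, a log2 ratio of -0.098. Both values were inside the range of neighbours, although 5.0% of neighbours with PF8503 and 5.6% with PF846 were as low. The log2 ratios of ARF4 share the vehicle libraries. ARF4 minus ARF5 came to -0.17 with PF8503 and 0.041 with PF846 on the log2 scale.

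ARF6, the plasma membrane member, was higher with PF8503. Its authors' means were 952 normalized counts with vehicle and 1064 with PF8503, a log2 ratio of 0.16, and 5.6% of neighbours were higher still. With PF846 the means were 871 and 889, a log2 ratio of 0.029. Each value lay inside the range of the transcripts of like level, as did the difference between compounds of 0.13.

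ARF1 held a smaller part of the ARF signal with PF846 than with vehicle. Of the signal per counted codon summed over ARF1, ARF4, ARF5 and ARF6, ARF1 held 58.3% with vehicle, 58.4% with PF8503 and 51.7% with PF846. In the PF846 table the sum over the 4 ARFs was 53.1 normalized counts per codon with vehicle and 43.5 with the compound. Without ARF1, the sum over the other 3 was 22.2 and 21.0. In the PF8503 table the sum over the 4 was 58.0 with vehicle and 57.9 with the compound. Of the 3 ARFs without ARF1, ARF4 held 44.7% with vehicle, 40.7% with PF8503 and 44.0% with PF846.

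**Figure D3:**
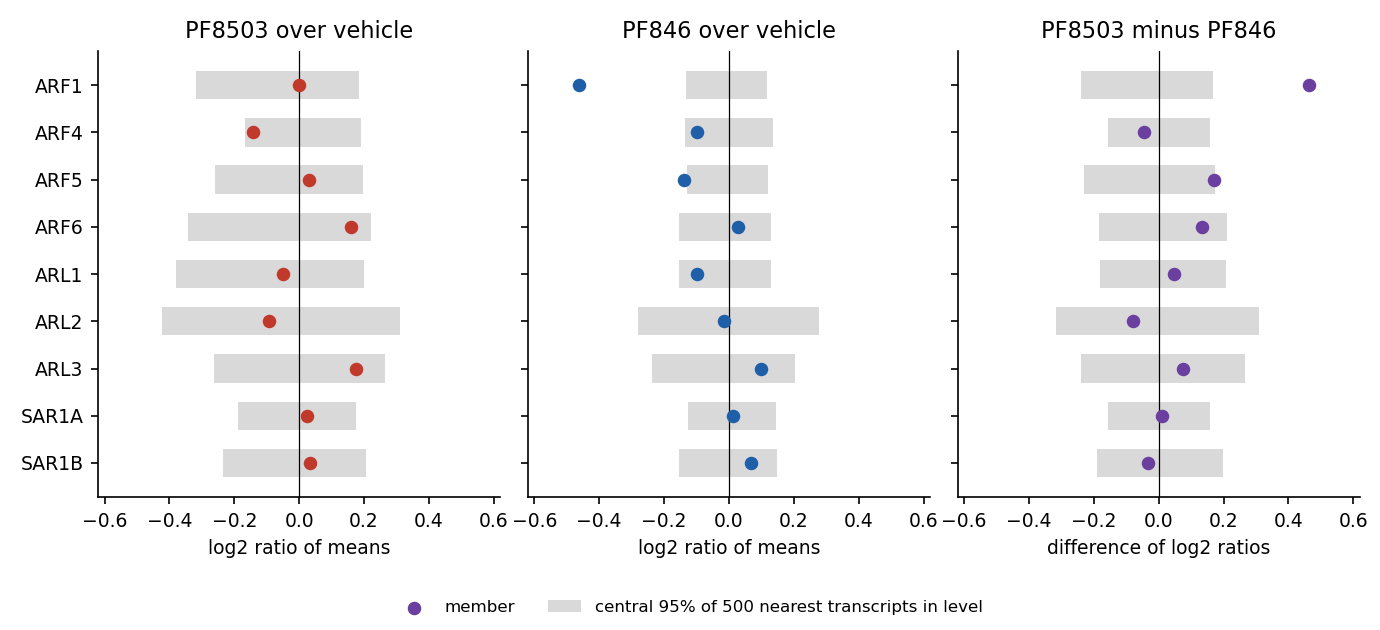
Log2 ratio of each member with PF8503 (left) and PF846 (middle), and the difference of the log2 ratios (right), as points. Grey bars give the central 95% of the 500 transcripts nearest in mean level. All 9 members are within the bars with PF8503, ARF1 and ARF5 are outside with PF846, and ARF1 is outside for the difference.

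The SAR1 GTPases, which start COPII vesicles at the ER, lay close to 0 with both compounds. SAR1A (ENSG00000079332) lies at chr10:70147289-70170523 and SAR1B (ENSG00000152700) at chr5:134601149-134649271, both on the reverse strand, and each has 198 codons. SAR1A had authors' means of 1753 normalized counts with vehicle and 1785 with PF8503, and of 1605 and 1620 in the PF846 table. Its log2 ratios were 0.026 and 0.014. SAR1B, the paralog needed for chylomicron secretion in the gut, had 690.2 with vehicle and 706 with PF8503, and 632 and 662 in the PF846 table. Its log2 ratios were 0.033 and 0.067. SAR1A minus SAR1B was -0.0076 with PF8503 and -0.053 with PF846 on the log2 scale, the smallest gap in size of the 3 pairs with PF8503.

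Among the ARF-like proteins, ARL1 was the most abundant on the ribosome. ARL1 (ENSG00000120805) lies on the reverse strand at chr12:101393116-101407772, ARL2 (ENSG00000213465) on the forward strand at chr11:65014160-65022184 and ARL3 (ENSG00000138175) on the reverse strand at chr10:102673731-102714397. ARL1, which brings golgins to the trans-Golgi, had authors' means of 990.5 normalized counts with vehicle and 957 with PF8503, a log2 ratio of -0.050. In the PF846 table it had 907 and 847, a log2 ratio of -0.098, and 6.8% of neighbours were as low. ARL2, which acts with tubulin cofactors, had 152 and 142 with PF8503 and 139 and 137 with PF846, with log2 ratios of -0.094 and -0.015. ARL3, which has RP2 as its GTPase-activating protein, had 244 and 275 with PF8503 and 223 and 239 with PF846, with log2 ratios of 0.18 and 0.100. ARL3 was the highest of the 9 members with each compound.

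ARL2 and ARL3 are also the members with the lowest signal. For ARL2 the central 95% of neighbours ran from -0.42 to 0.31 with PF8503 and from -0.28 to 0.28 with PF846. ARL2 minus ARL3 was -0.27 with PF8503 and -0.11 with PF846. Both members lay inside the range of their neighbours in each table.

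With an absolute log2 ratio of at least 0.3, or 1.23-fold, taken as past the fold, 1 of 9 members was lower with PF846, namely ARF1, and none was higher. Over all transcripts of the PF846 table, 1.12% were lower and 0.882% were higher by this fold. With PF8503 none of the 9 was past the fold in either direction, against 2.98% of all transcripts lower and 2.12% higher. For the difference between compounds, ARF1 was the only 1 of the 9 past 0.3, in the direction of higher with PF8503, against 1.44% of transcripts counted over the same codons. None of the 9 was past 0.3 in the direction of higher with PF846, against 1.64%. Because the members were named with these ratios known, nothing is read from the counts.

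The median log2 ratio of the 9 members was 0.026 with PF8503 and -0.015 with PF846, beside medians over all transcripts of 0.013 and 0.00086. With PF8503, 4 of the 9 were below 0, and with PF846, 5 were, beside 45.3% and 49.7% of all transcripts. The members ranged from -0.14 to 0.18 with PF8503 and from -0.46 to 0.100 with PF846. The second lowest with PF846 was ARF5.

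**Figure D4:**
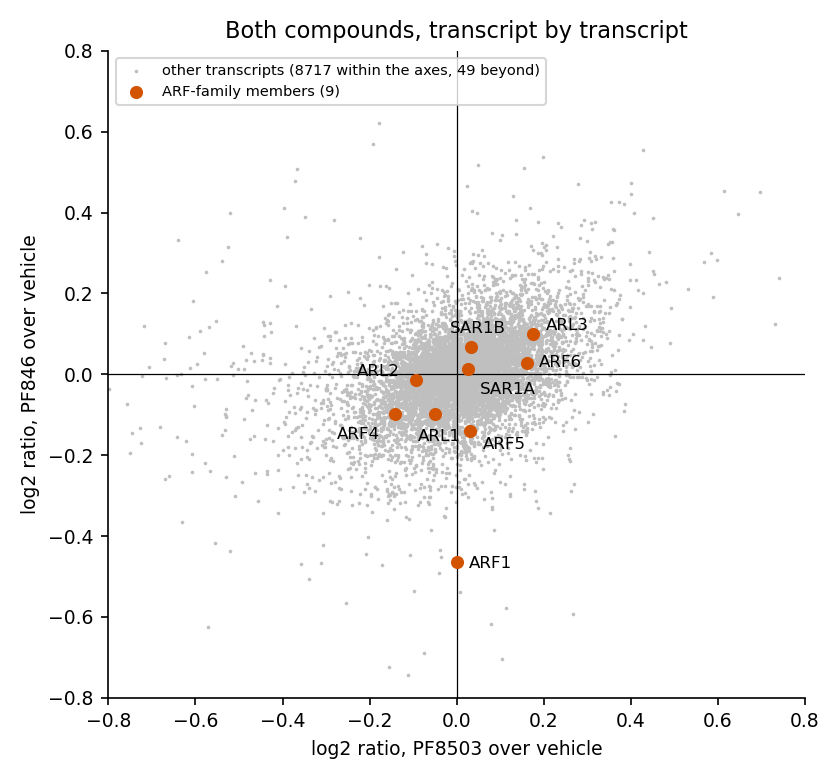
Log2 ratio over vehicle with PF8503 (x axis) and with PF846 (y axis) for the transcripts in both tables, with the 9 members in orange. Axes run from -0.8 to 0.8 and leave 49 other transcripts outside. ARF1 lies at the x value of 0 and the y value of -0.46, below the main cloud, and the other 8 members lie within it. Both axes share the vehicle libraries.

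The partners of these GTPases were followed through lists of their regulators, coats and effectors, and none of those transcripts was as low as ARF1 with PF846. Over all the lists and the Rab GTPases together, 122 transcripts had a value with PF846, of which 0 were lower and 1 was higher by at least 0.3. With PF8503, 130 had a value, of which 0 were lower and 1 was higher. The shares over all transcripts are those given above for the members.

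Exchange factors, which load ARFs and SAR1 with GTP, had values for 11 of 17 genes with PF8503 and for 9 with PF846. None was past 0.3, and the median log2 ratios were 0.095 and -0.011. The lowest in each table was the cytohesin CYTH1, at -0.295 with PF8503, just short of the threshold, and -0.11 with PF846. GTPase-activating proteins had values for 19 of 27 genes with PF8503 and 18 with PF846, none of them past 0.3, with medians of 0.0086 and 0.0097.

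The subunits of the COPI and COPII coats were also mostly near 0. All 8 COPI subunits with values, of 9 listed, lay between -0.068 (COPA) and 0.14 (COPE) with PF8503 and between -0.011 (COPG1) and 0.065 (COPB2) with PF846. The COPII list had values for 11 of 12 genes with PF8503 and 10 with PF846. In it only SEC16B, a scaffold of ER exit sites, was past 0.3, at 0.31 with PF8503, from authors' means of 43.5 and 54.0 normalized counts, near the bottom of the table. Among adaptors recruited by ARF, AP-4 included, with 20 of 21 genes valued with PF8503 and 18 with PF846, none was past 0.3. The lowest were AP1M2 at -0.29 with PF8503 and AP1M1 at -0.28 with PF846, both medium chains of the adaptor AP-1. AP1M2 had authors' means of 149 and 122 normalized counts with PF8503. AP1M1 had 1480 and 1219 with PF846, and was counted over the same codons for both compounds. A range of neighbours was not computed for AP1M1. For ARF4, at 1594 with vehicle beside PF846, it ran from -0.14 to 0.14, and AP1M1 was below its lower end. With the other compound AP1M2 had -0.085 and AP1M1 0.046. The AP-1 subunits AP1B1, AP1G1, AP1S1 and AP1S3 lay between -0.012 and 0.060 with PF846 and between -0.035 and 0.18 with PF8503, and AP1G2, with a value for PF8503 alone, had -0.012.

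The effectors of the ARL proteins, 16 of 16 with values, had medians of -0.041 with PF8503 and -0.0036 with PF846, and none was past 0.3. SYS1, which takes part in bringing ARL1 to the Golgi through ARFRP1, was the lowest with PF8503 at -0.297. The counted region of SYS1 differed between the tables, with a vehicle mean of 84.6 normalized counts beside PF8503 and 170.0 beside PF846, and its log2 ratio with PF846 was -0.026. TBCC, a tubulin cofactor, was the lowest with PF846 at -0.14. ARFRP1 itself was the highest of the 11 other ARF-family GTPases with PF8503, at 0.25. In that list TRIM23, a ubiquitin ligase with an ARF domain, was the lowest with each compound, at -0.22 and -0.21. None of this list was past 0.3.

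The Rab GTPases gave a like picture. Of these proteins, which control tethering of vesicles, 35 had values with PF8503 and 34 with PF846, with medians of -0.0037 and 0.0013. RAB29 was past 0.3 with PF846, at 0.37, from authors' means of 62.5 and 81.0 normalized counts.

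**Figure D5:**
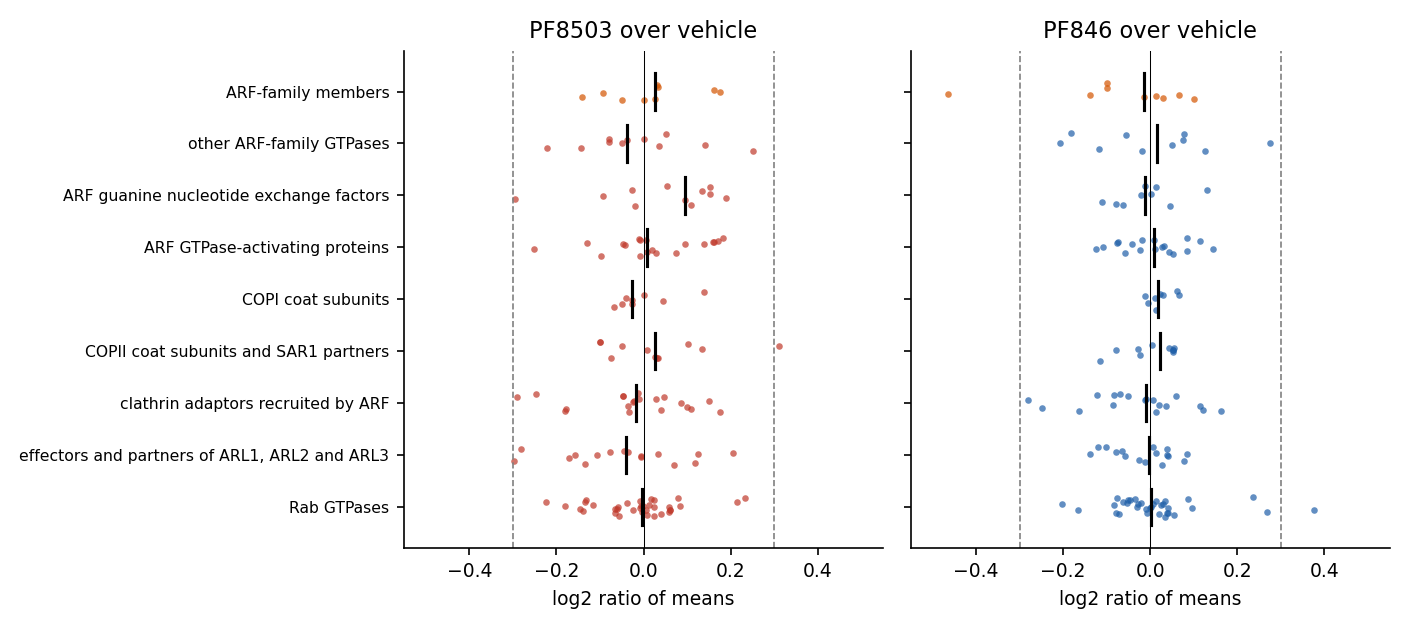
Log2 ratio of means for the 9 members (orange) and for each list of regulators, coats, effectors, other ARF-family GTPases and Rab GTPases, with PF8503 (left) and PF846 (right). Points are transcripts, black bars are list medians and dashed lines mark -0.3 and 0.3. The list of clathrin adaptors also holds the subunits of the adaptor AP-4. ARF1 is the only point below -0.3 in either panel, at -0.46 with PF846.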

How the data were processed

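Adapters were clipped by the authors (FASTX toolkit), ribosomal RNA reads were discarded, and the rest were mapped with Bowtie to a GRCh38 set of canonical coding transcripts (GENCODE version 24). Reads with more than a single match were dropped. The authors summed reads 3' of the codon of largest cumulative difference where its Z score was at least 2. Otherwise they began 10 codons after the start, read here as codon 10. The last 10 codons were left out, and more than 30 counts were required. In the deposited tables the signal is a mean, over the libraries of a condition, of counts that the authors scaled by DESeq size factors. Tool versions are not given in the sources used here. Replicate numbers in the study's script are not those of the labels, which leaves the libraries behind each mean uncertain. The authors' fold changes and p-values were not used.

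Computed here were log2 ratios of the means without a pseudocount, their difference between compounds, levels per counted codon, and ranks. A departure of over 0.002 (log2) of the ratio of vehicle means from its median was read as a different counted region. Log2 ratios, the 0.3 threshold and the range of neighbours were tried on simulated data for a single compound. The check of the counted region was run on vehicle means without noise, so its outcome there was set in advance. Differences between compounds, levels per codon and ranks were not simulated. Members and lists were chosen with earlier results of these data known. Named are the members, list genes past 0.3 (at most 4 per list), list extremes, picked after their values were seen, and, of the 5 transcripts nearest to ARF1 in the plane of both ratios, 4. The other transcript, 1 list extreme and 1 list of other GTPases are not reported here. Alternatives were pseudocounts, centring, scaling to equal sums, other folds, a minimum level and other numbers of neighbours. Python 3.11.15, numpy 2.4.6, pandas 2.3.3, matplotlib 3.10.9 and biopython 1.88 were used.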

Additional observations from a re-analysis of the deposited data

How the results depend on the processing

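The log2 ratios of the 9 members, the differences between compounds and those between paralogs moved by at most 0.013 on the log2 scale under pseudocounts of 1 and 10, centring on the table median, scaling to equal sums (not run for paralogs) and, for the difference between compounds, the direct ratio of the compound means. Centring and scaling shift every log2 ratio of a table by the same amount, and centring cancels between paralogs. The direct ratio repeats the difference where the ratio of vehicle means is constant. These settings could therefore hardly move the values. At an absolute log2 ratio of at least 0.5, 0 members were lower with PF846, against 0.396% of all transcripts, since ARF1 is at -0.46. At 0.2, ARF1 was still the single member past the threshold, against 3.64% of all transcripts lower with PF846. Over all lists together, a threshold of 0.2 gave 8 lower and 5 higher of 130 transcripts with PF8503. With PF846 it gave 4 lower and 4 higher of 122. Over all transcripts, the shares were 6.33% lower and 6.57% higher with PF8503, and 3.64% and 3.27% with PF846. A threshold of 0.5 gave 0 higher with either, against 0.24% of all transcripts with PF8503 and 0.0792% with PF846. A minimum mean of 100 normalized counts left 0 higher with either, against 1.27% and 0.505%. With 200 or 1000 neighbours, ARF1 and ARF5 were the members outside the range with PF846, and none was with PF8503. The order of levels per codon was the same over all codons. Leaving out a library was not possible, and depth per library limits every value to an unknown degree. No paired analysis was possible because the deposited columns are means over libraries and carry no replicate number.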

Other observations

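Among 7905 other transcripts with vehicle means of at least 100 normalized counts in both tables, the 5 nearest to ARF1 in the plane of the log2 ratios with PF8503 and PF846 included FZD4, SLC17A5, TOR1B and RNF157. Likeness was measured as the Euclidean distance over these 2 ratios alone, which share the vehicle. FZD4, a Wnt receptor, had log2 ratios of -0.036 with PF8503 and -0.45 with PF846. SLC17A5, the lysosomal sialic acid transporter, had -0.041 and -0.49, and TOR1B, an ATPase of the ER lumen, had 0.0076 and -0.54. In FZD4, SLC17A5 and TOR1B the counted region differed between the tables, so their values for the compounds cover different codons. RNF157, a ubiquitin ligase, had -0.026 and -0.35 over the same codons. ARF1 had 5016 normalized counts with vehicle in the PF846 table, against 136 for RNF157.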
